A study of Rattus norvegicus with 26 samples.

Results

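The insulin-like growth factor (IGF) genes described here are Igf1, the secreted growth factor, Igf1r, its cell-surface receptor, Igfals, the acid-labile subunit that circulates with it, and Igfbp1, Igfbp2, Igfbp3, Igfbp4, Igfbp5 and Igfbp6, the 6 classical IGF binding proteins. They were chosen by name: every probe set of the deposited value table that the platform annotation assigns to 1 of these symbols and to no other was taken. This gave 18 probe sets for 9 genes, of 31042 probe sets and 14217 genes tested. The values came from Affymetrix rat genome arrays, which measure a transcript with a set of short probes summarised as 1 log2 expression value.

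The study asked how liver and white fat of rats respond to a daily feed ration that shrinks step by step. The 26 arrays were 13 from feed-restricted and 13 from control animals, and the design text counts 1 array per animal. Inguinal white adipose tissue at day 4 gave 4 restricted and 4 control arrays, liver at day 4 gave 4 and 4, and liver at day 10 gave 5 and 5. All animals were inbred male Long-Evans (Turku/AB) rats aged 11 to 15 weeks, and every rat, controls included, was dosed with corn oil (4 mL/kg) when the experiment began. In the short regimen the restricted rats received 18, 12, 9 and 6 g of pelleted feed on days 0 to 3. In the long regimen they received powdered feed, unrestricted on day 0 then 16, 14 and 11 g on days 1 to 3, 8 and 6 g on days 4 and 5, 4 g on days 6 and 7, 2 g on day 8 and 1 g on day 9. The whole ration was given at once in the light hours. Adipose RNA and liver RNA were extracted with different kits. The 3 sets of arrays were processed separately by the authors, so an expression level is compared only within a set. The level of a probe set is not compared with that of another probe set. Choosing the probe set shown for a gene is the exception to both.

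Most circulating IGF1 is made by the liver under the control of growth hormone. In blood it travels mainly in a complex with IGFBP3 and the acid-labile subunit, which lengthens its life in the circulation. IGFBP1 is a short-lived binding protein made mainly by hepatocytes. Insulin represses its gene, and glucocorticoids and glucagon signalling raise it. IGFBP2 is a second liver-derived carrier whose blood level is known to be higher in fasting, while IGFBP4, IGFBP5 and IGFBP6 are made in many tissues, stromal and fat cells among them.

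The array medians within a set lay within 4.01 to 4.11 for adipose tissue, 3.16 to 3.25 for day 4 liver and 3.23 to 3.32 for day 10 liver. Pairs of arrays within a set correlated at 0.983 or above over all probe sets, and no 2 arrays were identical. The 8 hepatocyte markers averaged 14.7 to 14.9 in every liver array, and 4 of the 5 measured adipocyte markers lay below the set median in liver. In adipose tissue the adipocyte markers averaged 13.6 to 13.8 in restricted rats and 13.7 to 14.1 in controls. Hepatocyte markers in adipose tissue averaged 4.18 to 4.51 in restricted rats and 5.12 to 6.20 in controls, with 4 of 8 below the set median and 0 of 8 called by limma, and 3 of 8 at an unadjusted p below 0.05. Their part in the adipose values was not tested. A gene was called changed when its limma p-value, adjusted by the Benjamini-Hochberg method over all 31042 probe sets, was below 0.05. Where several probe sets read a gene, the brightest on average across the 26 arrays stands for it. The others are given beside it for the IGF genes, but not for related genes and markers. Within liver alone the Igf1 probe set 1388469_at averaged higher than the shown 1370333_a_at, 13.75 against 13.66 at day 4 and 14.02 against 14.01 at day 10. It was not called in either liver set, so the liver call of Igf1 depends on this choice.

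In liver after 4 days, Igfbp1 and Igfbp2 rose in the restricted rats, by 7.33-fold and 4.90-fold, and Igf1 fell to 78.0% of the control level by its main probe set. The other 6 IGF genes were not called. The 3 called members of 9, 2 higher and 1 lower, compare with 5.58% of all probe sets called in this comparison, 2.94% higher and 2.64% lower. The groups did not overlap for 5 of 9 members, 4 of them higher in restricted rats, against 10.9% of all probe sets without overlap, 5.81% higher and 5.08% lower.

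Igfbp1 (1368160_at, on chromosome 14) had log2 values of 9.19, 9.75, 9.17 and 10.21 in the restricted livers, against 5.62, 7.62, 7.37 and 6.21 in the control livers. All 4 restricted arrays lay above all 4 control arrays, and the control arrays were the more widely spread. The difference was 2.87 on the log2 scale (SE 0.49, n = 4 each, limma adjusted p = 0.0169). Only 18 of the 31042 probe sets had a more positive change in this set. Without control liver 4 the adjusted p was 0.0525, and over the other arrays left out in turn it ran from 0.0176 to 0.0476.

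Igfbp2 (1367648_at, on chromosome 9) had values of 11.23, 11.03, 11.04 and 9.45 in the restricted livers, against 8.78, 7.96, 8.42 and 8.43 in the control livers. The groups did not overlap, although the fourth restricted array lay well below the rest of its group. The difference was 2.29 (SE 0.41, n = 4 each, adjusted p = 0.0199). The call was more fragile than that of Igfbp1: it held in 2 of the 8 fits with 1 array left out, those without control liver 1 (adjusted p = 0.0374) or restricted liver 4 (0.0015), and lay between 0.0538 and 0.0644 in the other 6.

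The promoter sequences of Igfbp1, Igfbp2 and Igf1 are shown because these are the members called in both liver sets. All 9 members had an entry in the promoter table. Each is the 250 bases before the annotated transcript start in RefSeq (GRCr8), written 5′ to 3′ on the gene's strand. Capitals mark exact matches to any of 6 motifs searched on both strands.
Igfbp1, chr14:86261027-86261276, + strand: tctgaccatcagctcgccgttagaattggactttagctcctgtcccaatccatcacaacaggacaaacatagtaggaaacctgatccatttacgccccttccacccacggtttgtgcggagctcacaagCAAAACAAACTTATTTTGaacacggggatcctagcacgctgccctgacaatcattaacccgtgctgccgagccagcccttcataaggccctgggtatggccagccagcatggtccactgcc
Igfbp2, chr9:81864561-81864810, + strand: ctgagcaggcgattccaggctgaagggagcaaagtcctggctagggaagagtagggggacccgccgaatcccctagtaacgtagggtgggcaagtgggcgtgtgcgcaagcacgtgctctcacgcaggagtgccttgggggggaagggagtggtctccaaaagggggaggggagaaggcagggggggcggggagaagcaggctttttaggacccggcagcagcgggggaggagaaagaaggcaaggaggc
Igf1, chr7:24172282-24172531, + strand: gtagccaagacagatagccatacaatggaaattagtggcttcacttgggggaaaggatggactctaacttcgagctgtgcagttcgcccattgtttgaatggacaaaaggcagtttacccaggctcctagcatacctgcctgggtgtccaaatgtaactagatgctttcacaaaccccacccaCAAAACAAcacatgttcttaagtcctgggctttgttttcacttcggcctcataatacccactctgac
The capitals in Igfbp1 begin at position -121 from the transcript start and cover the paired insulin response element that this gene is known for: CAAAACAA, 2 bases of any kind, then CAAAATAA on the reverse strand. That pair was found in 1 of 27457 promoters of the same length, the Igfbp1 promoter itself, and its letters were taken from what is known of this gene. Alone, CAAAACAA was found in 1.9% of promoters and CAAAATAA in 1.74%, and in Igfbp1 both lie inside the pair. The only other member with either half-site was Igf1, with CAAAACAA at -67. The forkhead motif GTAAACA (3.25%) was found in Igfbp6 alone of the 9 members, at -221. The glucocorticoid receptor motif (AGAACA, 3 bases of any kind, then TGTTCT; 0.00364%) and the STAT5 motif TTCNNNGAA (7.52%) had no exact match in the 9 members. The Igfbp2 window matched none of the 6, which says only that these letters are not in it.

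Igf1 in day 4 liver had 13.48, 13.43, 13.57 and 13.44 in restricted rats by its main probe set (1370333_a_at, on chromosome 7), against 13.83, 13.97, 13.66 and 13.90 in controls. All 4 restricted arrays were below all 4 control arrays, by a small margin at the nearest pair. The difference was -0.36 (SE 0.07, n = 4 each, adjusted p = 0.0255). The other 2 Igf1 probe sets did not share the call. Their differences were -0.19 (1388469_at, adjusted p = 0.432) and -0.01 (1382599_at, adjusted p = 0.977), with overlapping groups in both. The call on the main probe set held in 3 of the 8 fits with 1 array left out, with adjusted p from 0.00995 without control liver 3 to 0.0789 without restricted liver 1.

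Of the genes for the circulating complex, Igfals had 11.88, 11.91, 11.98 and 11.71 in restricted day 4 livers, against 11.68, 11.71, 11.42 and 11.67 in control livers. The lowest restricted array and the highest control array all but touched. The difference of 0.25 (SE 0.08) was not called (adjusted p = 0.156). Igfbp3 (1386881_at) had 9.00, 8.80, 8.69 and 8.21 in restricted livers, against 9.31, 9.09, 8.85 and 8.86 in control livers. These groups overlapped, and the difference of -0.35 (SE 0.18) was not called (adjusted p = 0.494), nor was the -0.38 of the second Igfbp3 probe set, 1367652_at (adjusted p = 0.389). Igfbp1 and Igfbp3 are direct neighbours on chromosome 14 with 0 annotated genes between them in RefSeq, and Igfbp2 and Igfbp5 are likewise neighbours on chromosome 9.

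Igfbp4, whose product mostly restrains IGF action, had 10.51, 10.58, 10.41 and 10.62 in restricted day 4 livers, against 10.07, 10.37, 10.23 and 10.23 in control livers. Every restricted array was above every control array. The difference of 0.30 (SE 0.07) narrowly missed the call (adjusted p = 0.0533), and passed it without control liver 2 (adjusted p = 0.0372). Igf1r (1392492_at), Igfbp5 (1370960_at) and Igfbp6 (1372168_s_at) were dim in liver: these probe sets averaged 3.05, 2.35 and 4.20 in this set, whose median over all probe sets was 3.20. Their other probe sets were dim as well. The second of Igf1r, 1368123_at, averaged 3.23 and differed by -0.09 (adjusted p = 0.881), and the second of Igfbp6, 1387625_at, averaged 2.82 and differed by 0.00 (adjusted p = 0.987). The other 4 of Igfbp5 averaged 2.21 to 3.65 and differed by -0.01 to 0.02, with overlapping groups. For genes this close to the floor of the array, an absent change cannot be told apart from a change too dim to measure.

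**Figure D1:**
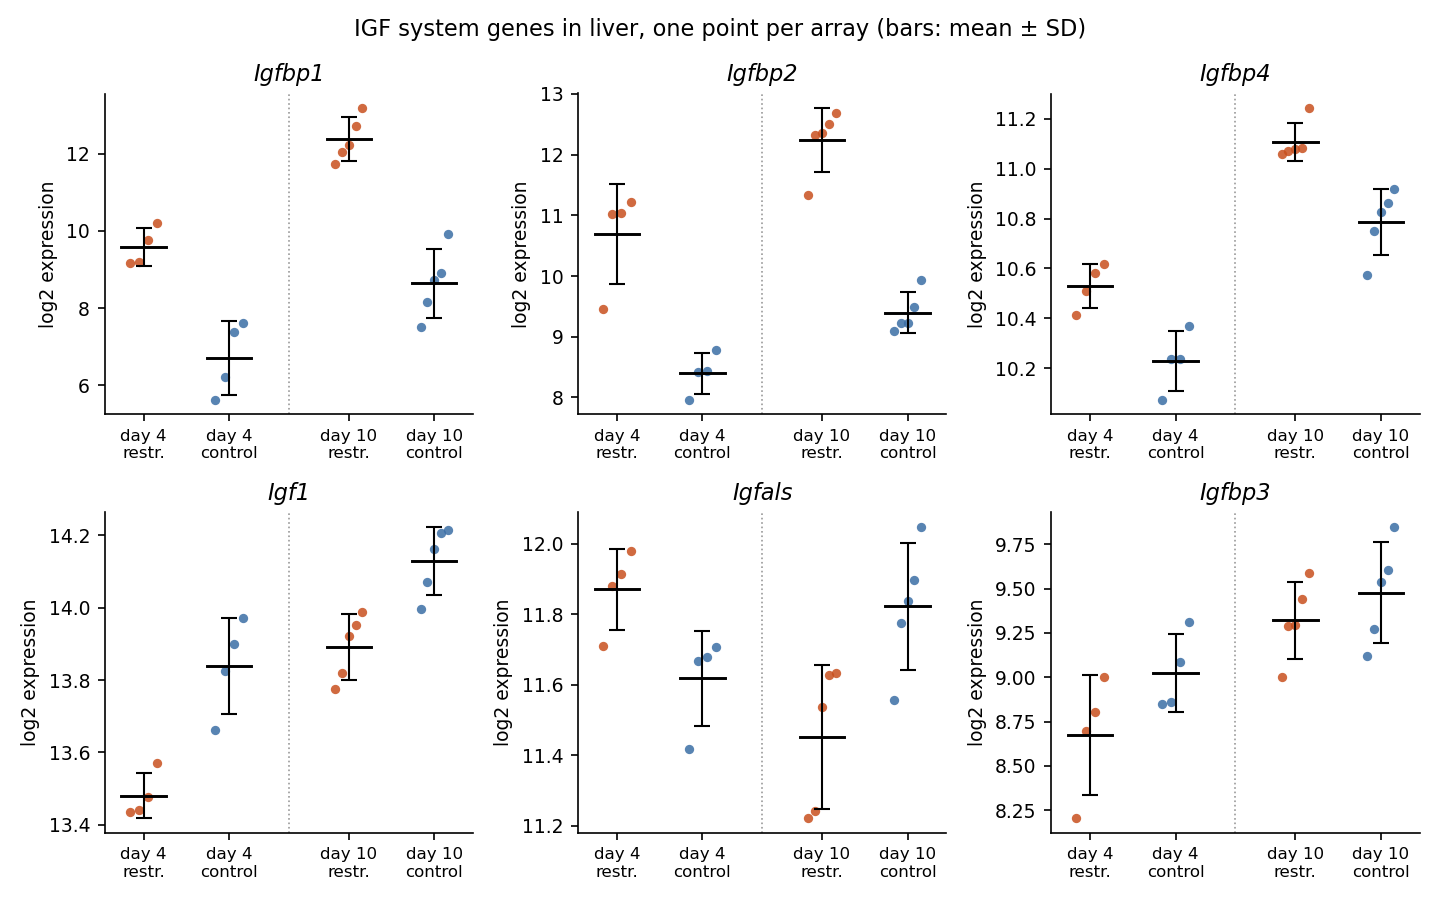
Log2 expression of 6 IGF genes in liver, 1 point per array, with restricted arrays left of control arrays for day 4 (n = 4 each) and day 10 (n = 5 each), and bars for the mean ± SD. Igfbp1 and Igfbp2 are clear of the control arrays at both times, while the axes of Igfbp4, Igf1 and Igfals span about 1 log2 unit. The dotted line separates sets that were processed apart, whose levels are not comparable.

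After 10 days, Igfbp1 and Igfbp2 rose in the restricted livers by 13.4-fold and 7.20-fold, and Igfbp4 rose by 1.25-fold. Igf1 fell to 84.8% of the control level by its main probe set. The other 5 members were not called. The 4 called members of 9, 3 higher and 1 lower, compare with 11.2% of all probe sets called in this comparison, 5.82% higher and 5.36% lower. The groups did not overlap for 4 of 9 members, 3 of them higher in restricted rats, against 11.4% of all probe sets, 5.88% higher and 5.48% lower.

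Igfbp1 had 12.04, 11.73, 12.24, 12.73 and 13.19 in the restricted livers, against 8.90, 9.91, 8.15, 8.72 and 7.52 in the control livers. The lowest restricted array was almost 2 log2 units above the highest control array. The difference was 3.75 (SE 0.45, n = 5 each, adjusted p = 0.000761). Arrays of both groups were scanned on each of 2 days, and the difference was 2.90 on the first day and 4.60 on the second.

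Igfbp2 had 12.32, 11.34, 12.36, 12.51 and 12.68 in restricted livers, against 9.09, 9.49, 9.23, 9.94 and 9.23 in control livers. The second restricted array was the lowest of its group and still above every control array. The difference was 2.85 (SE 0.26, n = 5 each, adjusted p = 0.00022), with 2.56 and 2.93 within the scan days. Among all 31042 probe sets, 22 had a more positive change than Igfbp1 and 39 a more positive change than Igfbp2. Igfbp1, Igfbp2 and Igfbp4 were each called in all 10 fits with 1 array left out.

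Igfbp4 had 11.08, 11.06, 11.24, 11.07 and 11.09 in restricted livers, against 10.57, 10.75, 10.92, 10.83 and 10.86 in control livers. The restricted arrays formed a tight group above every control array. The difference was 0.32 (SE 0.07, n = 5 each, adjusted p = 0.0119), and 0.32 and 0.29 within the scan days.

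Igf1 had 13.99, 13.95, 13.92, 13.82 and 13.78 in restricted livers, against 14.00, 14.07, 14.16, 14.21 and 14.21 in control livers. The groups met almost at their edges without overlapping. The difference was -0.24 (SE 0.06, n = 5 each, adjusted p = 0.0224), with -0.11 and -0.37 within the scan days. The other 2 probe sets gave -0.21 (1388469_at, adjusted p = 0.0763) and -0.33 (1382599_at, adjusted p = 0.119). All 3 Igf1 probe sets were therefore on the lower side at day 10, with 1 of them called. The call of the main probe set held in 6 of 10 fits with 1 array left out and had an adjusted p of 0.056 to 0.0584 without control liver 3, 4 or 5 or restricted liver 4.

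Igfals had 11.63, 11.63, 11.24, 11.54 and 11.22 in restricted livers, against 11.55, 11.84, 11.90, 11.78 and 12.05 in control livers. The first control array lay inside the restricted range and the other 4 lay above it. The difference was -0.37 (SE 0.12, adjusted p = 0.0791), and it was -0.44 without control liver 1, which brought the adjusted p to 0.0404. Within the scan days it was -0.13 and -0.58. Igfbp3 differed by -0.15 (SE 0.15, adjusted p = 0.834) and by -0.35 on 1367652_at (adjusted p = 0.284). The shown probe sets of Igf1r, Igfbp5 and Igfbp6 had set means of 3.10, 3.14 and 2.80, all below the set median of 3.28, and were not called. Of their others, 1368123_at of Igf1r averaged 3.25 and differed by -0.04, 1387625_at of Igfbp6 averaged 2.80 and differed by 0.05, and the 4 of Igfbp5 averaged 2.14 to 3.59 and differed by 0.00 each, none of them called.

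**Figure D2:**
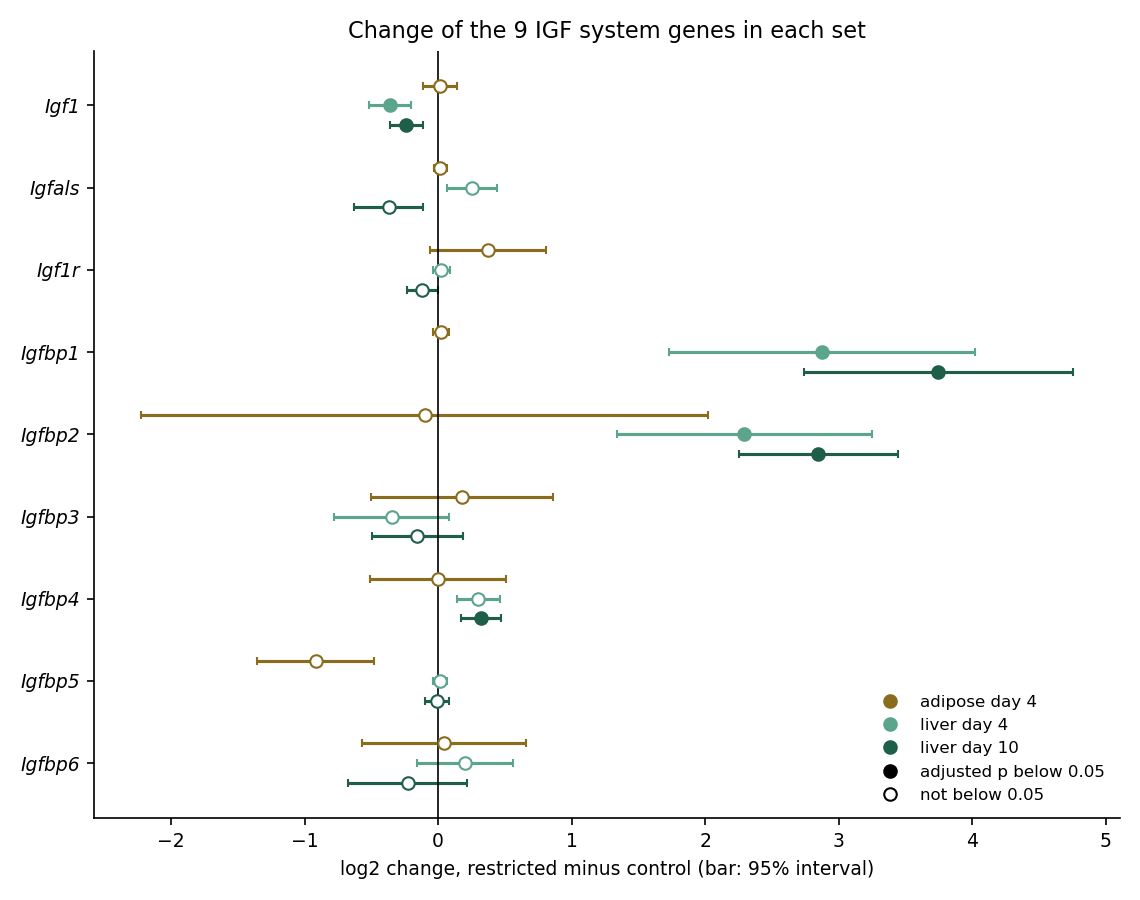
Log2 change, restricted minus control, of the 9 IGF genes in adipose tissue at day 4 and liver at days 4 and 10, with bars for the unadjusted 95% interval and filled points for an adjusted p below 0.05. Igfbp1 and Igfbp2 are far to the right in both liver sets, 2.87 and 2.29 at day 4 and 3.75 and 2.85 at day 10, and Igfals is on opposite sides of 0 in the 2 liver sets without a filled point in either.

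A test of whether the response of liver differed between the 2 regimens, the day 10 effect minus the day 4 effect, called 0 of 9 members with limma, while 2 of 9 had an unadjusted p below 0.05. In the same test 0.654% of all probe sets were called. The regimens differ in feed form and ration as well as in length. The difference was 0.87 for Igfbp1 (SE 0.69, 95% interval -0.59 to 2.34) and 0.55 for Igfbp2 (SE 0.48, interval -0.48 to 1.59), so a difference of more than 2 log2 units in Igfbp1 lies within its interval. Igfals had the smallest unadjusted p of the 9 members. Its difference was -0.62 (SE 0.15, interval -0.95 to -0.30), and the adjusted p of 0.0879 did not pass. For Igf1 the difference was 0.12 (SE 0.09, interval -0.07 to 0.31), and for Igfbp4 it was 0.02 (SE 0.10, interval -0.19 to 0.23).

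In inguinal adipose tissue after 4 days, 0 of the 9 IGF genes were called with limma, and 1 of 9, Igfbp5, had an unadjusted p below 0.05. In this comparison 17 probe sets in all were called, 0.0548% of those tested. All adipose control arrays were hybridised and scanned before the restricted ones, so in every adipose comparison time and feed cannot be told apart. Igf1 had 14.49, 14.59, 14.48 and 14.64 in restricted rats, against 14.58, 14.63, 14.47 and 14.47 in controls. The groups lay on top of each other, and the difference was 0.01 (SE 0.06, 95% interval -0.12 to 0.14). The other 2 Igf1 probe sets differed by -0.10 (1388469_at) and -0.15 (1382599_at), also with overlap and an adjusted p of 0.706 each. The liver-type genes Igfals and Igfbp1 were at the floor of the array in fat, between 1.66 and 2.28 in all 8 arrays, against a set median of 4.05.

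Igfbp5, a binding protein of stromal and fat cells that also binds extracellular matrix, had 13.32, 13.23, 12.55 and 12.91 in restricted fat, against 13.84, 13.75, 14.21 and 13.88 in control fat (1370960_at). It was the only member whose groups did not overlap on the shown probe set, against 6.09% of all probe sets without overlap. The restricted mean was 53.0% of the control mean, a difference of -0.92 (SE 0.19, n = 4 each), with an unadjusted p of 0.00162 and an adjusted p of 0.212. Of the other 4 Igfbp5 probe sets, all were on the lower side. 1387348_at had 8.64, 8.12, 7.82 and 8.01 in restricted fat, against 9.42, 9.08, 9.88 and 9.42 in control fat, a difference of -1.30 (SE 0.22, adjusted p = 0.146). The groups did not overlap on 1396152_s_at either, with a difference of -1.12 (adjusted p = 0.279). They did overlap on the remaining 2. On 1397830_at the highest restricted array had 10.05 and the lowest control array 9.93 (difference -1.04, adjusted p = 0.331), and on 1387347_at these were 7.41 and 6.87 (difference -1.14, adjusted p = 0.583). These probe sets read the same transcript in the same animals and are not independent.

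**Figure D3:**
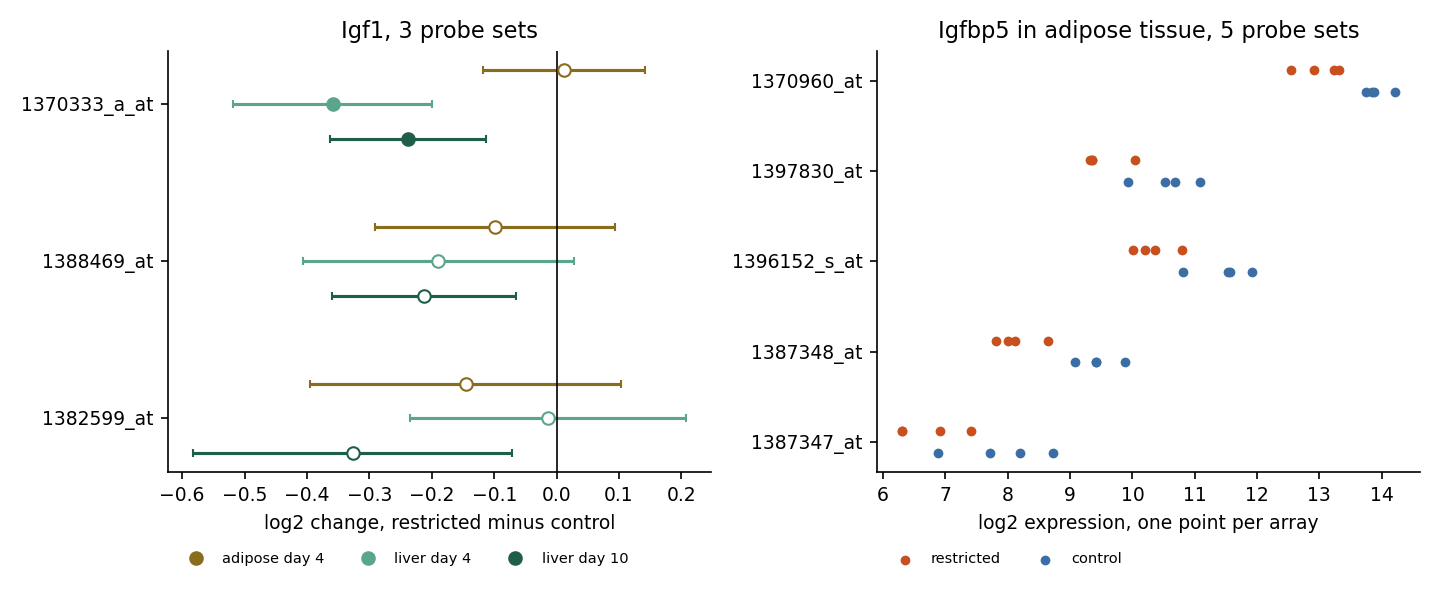
Left, log2 change, restricted minus control, of the 3 Igf1 probe sets in the 3 array sets, with unadjusted 95% intervals and filled points for an adjusted p below 0.05. Right, log2 expression of the 5 Igfbp5 probe sets in adipose tissue, 1 point per array, with the restricted arrays (n = 4) above the control arrays (n = 4) in each row. In all 5 rows the restricted arrays lie to the lower side, by -0.92 to -1.30 on average. Levels of different probe sets are not comparable.

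Igf1r had 9.58, 9.35, 9.19 and 9.25 in restricted fat, against 8.99, 9.23, 9.19 and 8.45 in control fat. The groups overlapped in the middle, and the difference of 0.38 (SE 0.18) was not called (adjusted p = 0.706). On the second Igf1r probe set, 1368123_at, it was 0.58 (SE 0.29, adjusted p = 0.706), without overlap. Igfbp3 had 10.95, 10.59, 9.96 and 10.70 in restricted fat, against 9.90, 10.70, 10.04 and 10.84 in control fat, a difference of 0.18 (SE 0.29). Its 2 groups covered nearly the same range, and 1367652_at gave 0.25 (SE 0.28), also with overlap.

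Igfbp2 was the most variable member in fat, with 8.01, 8.91, 10.87 and 9.74 in restricted rats, against 10.68, 10.84, 7.65 and 8.75 in controls. The spread within each group was about 3 log2 units, and the difference was -0.10 (SE 0.90, 95% interval -2.22 to 2.02). Igfbp4 had 7.94, 7.93, 8.63 and 7.98 in restricted fat, against 8.34, 8.42, 8.01 and 7.71 in control fat, and Igfbp6 had 11.07, 10.99, 11.73 and 11.22, against 11.52, 11.54, 11.23 and 10.55. The second Igfbp6 probe set, 1387625_at, differed by 0.00 (SE 0.31). On the shown probe sets the third restricted array was the highest restricted array for all 3 genes, and the first and second control arrays were the highest control arrays. The epithelial keratin gene Krt7 had 5.50, 6.33, 7.56 and 6.79 in restricted fat, against 7.10, 7.58, 5.78 and 5.41 in control fat, and Krt19 had 8.11, 8.62, 10.18 and 10.01, against 9.86, 10.11, 8.85 and 8.85. The same 3 arrays thus carried the highest keratin values of their groups, while the epithelial gene Epcam was between 2.56 and 2.73 in all 8 arrays. The part of such tissue in the Igfbp2, Igfbp4 and Igfbp6 values was not tested. The keratins were looked at after these arrays had been seen to stand apart.

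**Figure D4:**
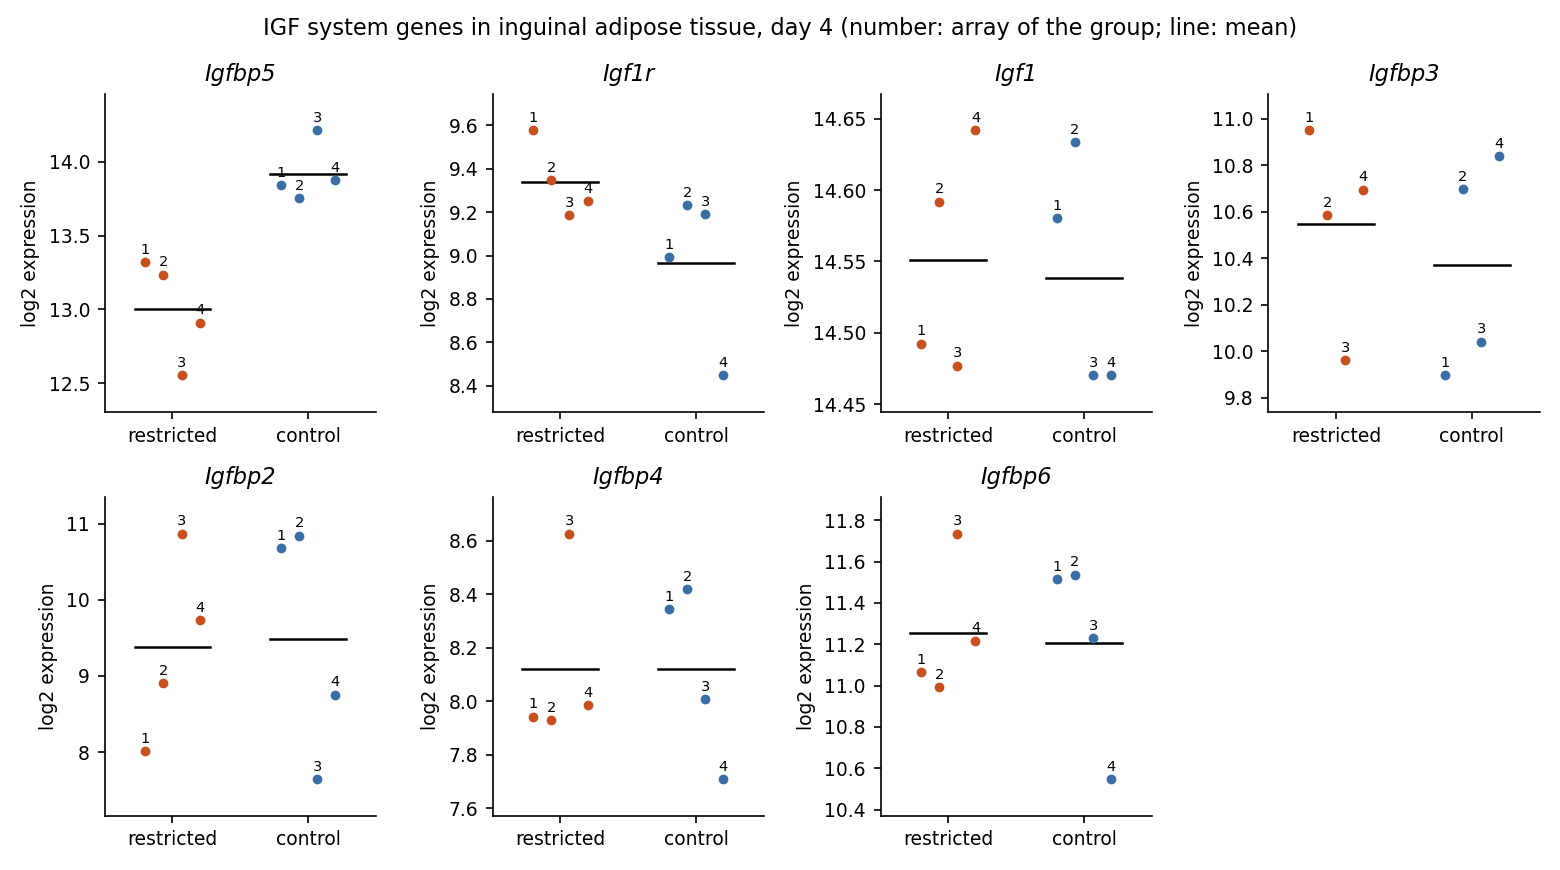
Log2 expression in inguinal adipose tissue at day 4 of the 7 IGF genes measured above the floor, 1 numbered point per array, restricted arrays (n = 4) left of control arrays (n = 4), with a line at the group mean. Igfbp5 is the only one with separate groups, and in Igfbp2, Igfbp4 and Igfbp6 restricted array 3 and control arrays 1 and 2 are the high ones.

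The liver effect minus the adipose effect at day 4 was called for 3 of 9 members, against 3.41% of all probe sets called in this test. For 2 of the 3 it compares no measured responses in both tissues, since the gene was at or near the floor of the array in one of them. Igfbp1, at the floor in fat, gave 2.85 (SE 0.51, adjusted p = 0.0074), which is its liver effect over again. Igfbp5, near the floor in liver, gave 0.93 (SE 0.19, adjusted p = 0.0187), which is the size of its adipose effect, not called in fat by itself. Of its other 4 probe sets 2 also passed, the larger with a difference of 1.31. Igf1 was well above the floor in both tissues, and its difference was -0.37 (SE 0.09, adjusted p = 0.0396). It passed on the main probe set alone, and in 4 of the 16 fits with 1 array left out. For Igfbp2 the difference of 2.39 (SE 1.03, 95% interval 0.17 to 4.61) did not pass (adjusted p = 0.323). Both tests of differences set arrays of separately processed sets against each other only through their within-set effects. If a rat gave both tissues, its liver and adipose arrays were still treated as independent.

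Lists of related genes were read beside the members, each gene by its brightest probe set only, though some have several. Of all probe sets, 0.0548% were called in adipose tissue, 5.58% in day 4 liver and 11.2% in day 10 liver. A count near these shares is not read as a response of its list. Of 14 measured growth hormone signalling genes, 1 rose and 2 fell in day 4 liver. The growth hormone receptor Ghr averaged 12.1 in restricted livers and 12.6 in control livers (difference -0.45, SE 0.08), and Stat5b, the transcription factor that carries the signal to Igf1, averaged 5.64 and 6.48 (difference -0.84, SE 0.19). The prolactin receptor Prlr rose by 3.86 (SE 0.83). In day 10 liver 2 rose and 2 fell: Ghr averaged 11.7 in restricted livers and 12.8 in control livers, Stat5b 5.89 and 7.12, and Prlr 9.45 and 4.90, while the fourth, Socs1, was near the floor with a change of 0.12. The day 10 differences were -1.16 (SE 0.17) for Ghr, -1.24 (SE 0.11) for Stat5b and 4.55 (SE 0.84) for Prlr. In adipose tissue 0 of 14 were called with limma and 1 of 14 had an unadjusted p below 0.05. 

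Of 16 measured other IGF ligands, receptors and adaptors, the only gene called in all 3 sets was Irs2, an adaptor of the insulin and IGF1 receptors. It rose by 1.22 in adipose tissue (SE 0.10, adjusted p = 0.0258), the 1 called gene of the list there, by 3.18 in day 4 liver (SE 0.57), again the 1 called gene, and by 1.76 in day 10 liver (SE 0.38). For the adipose value, array time and feed cannot be told apart. At day 10, Pik3ca also rose, by 0.37, and 3 genes fell, among them Irs3 by 3.17 and Irs1 by 0.56 on the log2 scale. Igf2, the second ligand, was at the floor in liver, with a restricted mean of 2.48 and a control mean of 2.47 at day 4. In fat it averaged 8.96 in restricted rats and 8.33 in control rats, a difference of 0.63 (SE 0.32) that was not called.

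Of 11 measured genes for proteases of the binding proteins and related factors, 0 were called in adipose tissue and 0 in day 4 liver with limma, where 2 and 3 had an unadjusted p below 0.05. In day 10 liver 3 fell: Htra1, a serine protease, by 0.52 (SE 0.06), Mmp14 by 0.50 (SE 0.13) and Plau, the urokinase gene, by 0.45 (SE 0.12) on the log2 scale. Of 15 genes listed here as candidate regulators of Igfbp1 transcription, 1 rose and 1 fell in day 4 liver. In day 10 liver 3 rose and 4 fell. Ppargc1a, a fasting-induced coactivator, rose by 0.85 at day 4 (SE 0.17) and by 3.78 at day 10 (SE 0.55). Atf4, a stress-response factor, fell by 0.71 at day 4. At day 10 Foxa1, a liver pioneer factor, fell by 0.71, Nr3c1, the glucocorticoid receptor, fell by 0.44, and Creb3l3, a fasting-responsive liver factor, rose by 0.39. Foxo1, the insulin-inhibited factor that binds the Igfbp1 element, was not called on the probe set read, 1 of its 3. It averaged 5.77 in restricted livers and 6.39 in control livers at day 4, and 7.40 and 6.43 at day 10. In adipose tissue 0 of the 15 were called with limma and 1 had an unadjusted p below 0.05.

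Over the 9 members the median change was 0.02 in adipose tissue, 0.20 in day 4 liver and -0.12 in day 10 liver, against 0.02, 0.01 and 0.00 over all probe sets. Each of these medians is the value of a single dim gene that was not called. These are Igfals in adipose tissue, Igfbp6 in day 4 liver and Igf1r in day 10 liver. The medians are therefore no measure of a shift of the members as a whole. Over the 18 liver arrays, after each set's mean was subtracted, Igfbp1 and Igfbp2 had a Pearson correlation of 0.86 and Igfbp1 and Igf1 one of -0.85. These correlations include the difference between feed groups and describe it. On the same scale and among 7070 genes, the 3 genes most like Igfbp1 were Cyp27a1 (0.97), Cnot1 (0.97) and Ptgr3 (0.96), and the least like was Csrp1 (-0.96). For Igfbp2 they were Eif3h (0.97), Ak3 (0.96) and Erlin1 (0.96), with Polr2b at the other end (-0.97). For Igf1 they were Rac1 (0.93), Clic4 (0.91) and Ankh (0.91), with Prdx6 at the other end (-0.97). The pattern of Igfals was shared less closely, with Alg14 (0.82), Sdc2 (0.80) and Cfhr4 (0.80) nearest and Ndufs1 farthest (-0.89).

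Some markers of other liver cells differed between the feed groups, with the most calls in the macrophage and Kupffer cell list. Of all probe sets, 5.58% were called in day 4 liver and 11.2% in day 10 liver. A count near these shares is not read as a response of its list. Of 8 macrophage and Kupffer cell markers, 5 fell in day 4 liver and 7 in day 10 liver. Their mean level was 8.17 to 8.53 in restricted livers and 8.91 to 9.09 in control livers at day 4, and 8.35 to 8.89 in restricted livers and 9.43 to 9.85 in control livers at day 10. Of 3 red blood cell markers, 0 were called at day 4 with limma. Their mean levels overlapped there, at 5.75 to 7.30 in restricted livers and 6.66 to 9.02 in control livers. At day 10, 2 of them fell, and their mean level was 5.17 to 6.23 in restricted livers and 7.05 to 8.42 in control livers. Of 8 fibroblast and stellate cell markers, 1 fell at day 4 (Col3a1, -1.32), where their mean level was 4.73 to 5.56 in restricted livers and 5.68 to 5.83 in control livers. At day 10, 2 of them fell (Col3a1, -1.10, and Pdgfrb, -0.81) and 1 rose (Dcn, 1.62), and the mean levels of the list overlapped between the groups. Of 3 bile duct markers, 0 were called at day 4 with limma and 1 rose at day 10 (Epcam, 0.59). With limma 0 of 5 endothelial and 0 of 4 lymphocyte markers were called in either liver set, while 1 of each list had an unadjusted p below 0.05 at day 10. Of the 8 hepatocyte markers, 0 rose and 1 fell at day 4 (Ttr, -0.15), and 1 rose and 1 fell at day 10. In whole tissue, fewer cells of a type and less RNA per cell cannot be told apart, and the part of these cells in the IGF gene values was not tested.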

How the data were processed

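Total RNA of liver and inguinal adipose tissue was hybridised to single-colour arrays, 1 per animal by the count of the design text. Whether any rat gave both tissues could not be settled. The values deposited by the authors are log2 expression, made per the submitters' processing notes in R 2.4.1 with affy 1.12.2, which name RMA and GCRMA 2.6.0. Which of these made each value is not stated in the sources used here. Per the series' design text, each of the 3 sets was pre-processed as a group. No signal above background or detection call was used, and the number of arrays limits the precision.

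The deposited log2 values were used unchanged. Of 31099 rows, 57 control probe sets were left out, and 20826 of the remaining 31042 have 1 gene symbol, 436 several and 9780 none in the platform annotation. Restricted and control arrays of each set were compared in R 4.3.3 with limma 3.58.1 (lmFit, eBayes), adjusted by the Benjamini-Hochberg method over all probe sets, with a threshold of 0.05. Differences between sets were contrasts in 1 fit over both sets. The script was tested on simulated data. All 9 members are named, with a summary for the dim Igfbp5 probe sets in liver, and up to 4 called genes of each related list, or up to 2 where none was called. Foxo1, Igf2 and the keratins are named outside that rule, after their values were seen. Irs4, Pappa and Adam12 are not analysed here. The members, lists and motifs were chosen with earlier results of these data known. Arrays were not treated as paired by replicate number. Same-numbered arrays were not steadily alike (correlations of same-numbered deviations from -0.38 to 0.26), which cannot exclude pairing. In adipose tissue all control arrays have earlier hybridisation and scan times than the restricted ones, so time and feed cannot be told apart. Scan records of day 4 liver were not used here.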

Additional observations from a re-analysis of the deposited data

Results flagged for a closer look

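Of 54 groups of arrays (9 genes in 6 groups), 8 had 1 array far from the others of its group, where chance flags about 1 in 20. In liver these were Igfbp2 in day 4 restricted array 4 (9.45, with the nearest other restricted array at 11.03), Igfbp2 in day 10 restricted array 2 (11.3), Igfbp4 in day 10 restricted array 3 (11.2), Igfals in day 4 control array 3 (11.4) and Igfbp6 in day 10 control array 4 (3.64). In adipose tissue they were Igfbp4 in restricted array 3 (8.63), and Igfals (1.66) and Igfbp1 (2.18) in control array 4. The last 2 are at the floor of the array and differ from the rest of their group by less than 0.1.

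The test of the liver effect minus the adipose effect at day 4 passed for Igfbp1 (2.85), Igfbp5 (0.93) and Igf1 (-0.37). Igfbp1 was at the floor of the array in fat and Igfbp5 near it in liver, so for these 2 genes a response of one tissue was not measurable and the test does not compare both. The Igf1 difference rests on 1 of its 3 probe sets. The second had a difference of -0.09 and the third 0.13.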

How the results depend on the processing

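In day 10 liver Igfbp1, Igfbp2 and Igfbp4 kept their direction under every alternative run. Igfbp1 and Igfbp2 were called under all of them except within scan day 1. Igfbp4 was called under all of them except within each single scan day. Igf1 also stayed lower, from -0.37 to -0.11 over the 8 alternatives other than leaving 1 array out. It was called in 5 of these 8, with an adjusted p of up to 0.676. Within scan day 1 (2 restricted and 3 control arrays) 0 members and 567 probe sets were called, and within scan day 2 (3 restricted and 2 control arrays) 3 members and 1240 probe sets. A smaller number of arrays is part of how these 2 alternatives are built. With the replicate number as a block, 0 members and 987 probe sets were called in day 4 liver, with adjusted p of 0.0678 for Igfbp1, 0.0713 for Igfbp2 and 0.144 for Igf1, and 0 probe sets in adipose tissue. The block left 1 member with a called difference between liver and adipose tissue. Same-numbered arrays were not steadily alike, but so few correlations cannot exclude pairing or a shared batch. Whether these values reflect a weaker effect was not tested. Dropping probe sets whose mean was under 5 gave 29 called probe sets in adipose tissue and 1 member, Igfals, whose liver response differed between the regimens. It also called Igfbp4 in day 4 liver (adjusted p = 0.0263) and Igfals in day 10 liver (0.0269). Quantile normalization gave 9 called probe sets in adipose tissue. With each array left out in turn, called members ranged from 0 to 3 in day 4 liver, 3 to 5 in day 10 liver, 0 to 0 in adipose tissue, 0 to 1 for the difference between liver regimens and 2 to 3 for liver against adipose tissue. Called probe sets ranged from 1091 to 1744 in day 4 liver, 2841 to 3442 in day 10 liver and 0 to 15 in adipose tissue. The 1 called difference between liver regimens, that of Igfals, came without day 10 control array 1. In day 4 liver 0 members were called without control array 4, and 1 without restricted array 1 or 2. Showing each gene by its most variable probe set turned the Igf1 difference between liver and adipose tissue to 0.13 (adjusted p = 0.916). The causes of these shifts were not tested. A scan-day block was not run for adipose tissue, with 1 scan day, or for day 4 liver, whose records were not used here.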
